A study of Arabidopsis thaliana with 9 samples.

Results

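The 10 loci described here are the classical seed storage protein genes of Arabidopsis thaliana, out of 27444 nuclear protein-coding genes in the gene table. They were taken by locus and comprise 3 cruciferins (CRA1, CRU2 and CRU3), 2 oleosins (OLEO1 and OLEO2) and 5 2S albumins (SESA1 to SESA5). The material was sperm nuclei of htr10 mutant plants, isolated by flow sorting after SYBR Green I staining. HTR10 encodes a histone H3 variant of the male gamete, and every sample carried the htr10 genotype. The groups were 3 H3K27me3 immunoprecipitations, 3 H3K27me1 immunoprecipitations and 3 inputs of micrococcal nuclease digested chromatin. The ecotype is given as Col-0 for 5 of the 9 samples. It is given as Col-1 for 1 H3K27me1 sample and as Col-2, Col-3 and Col-4 for the 3 H3K27me3 samples. Whether these are different accessions of the species or a slip in labels that count upward is not settled by the sources used here. The labels also call every immunoprecipitation replicate 1 in a second place, while the titles number them 1 to 3. Sperm of another genotype is not compared here, and nothing below measures what the mutation changes.

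Cruciferins (12S globulins) and 2S albumins are the main nitrogen reserves of the Arabidopsis seed. Oleosins coat the oil bodies of the embryo. These genes are strongly transcribed during seed maturation, under the regulators LEC1, LEC2, FUS3 and ABI3 and bZIP partners, and are shut off in vegetative tissue. H3K27me3 is deposited by Polycomb repressive complex 2, which keeps the seed programme silent after germination with help from the B3 repressors of the VAL family. H3K27me1 of plants is best known from constitutive heterochromatin. Arabidopsis sperm is known to carry little H3K27me3 when HTR10 is intact.

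Each mark is represented by a broad and a narrow peak list with 1 set of peaks per mark, so no value below has a replicate error, and sequencing depth is unknown. The broad lists held 12927 H3K27me3 and 11898 H3K27me1 peaks, and the narrow lists 8940 and 9451. A gap between peaks means that no peak passed the authors' threshold there, not that the mark was absent. The HTR10 gene itself had 0% of its body under either mark, which does not test the genotype. Broad peaks touched the body of 26.0% (H3K27me3) and 22.7% (H3K27me1) of all genes. With 2 kb flanks, HTR10 had 0% under H3K27me3 and 11.5% under H3K27me1 broad peaks. Peak lists hold no expression values, so sperm identity could not be checked against marker genes.

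As for most protein-coding genes, no seed storage gene body lay mostly under either mark. H3K27me3 broad peaks touched the body of 3 of the 10 genes (CRA1, CRU2 and OLEO2), beside 26.0% of all protein-coding genes. H3K27me1 broad peaks touched 1 body (OLEO2), beside 22.7% of all genes. At least 50% of the body was covered in 0 of 10 genes by H3K27me3 and in 0 of 10 by H3K27me1, where 5.67% and 5.49% of all genes reached that level. The highest body coverage was 39.0% for H3K27me3, in CRU2, and 36.8% for H3K27me1, in OLEO2. The narrow lists, which keep only the sharper and stronger intervals, touched 0 of 10 bodies for both marks, beside 8.25% of all genes for H3K27me3 and 8.5% for H3K27me1. Among 10 genes, counts of 0 lie close to such low shares and do not set the storage genes apart.

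As among genes in general, more storage genes were reached once their flanks were counted. With 2 kb added on each side, H3K27me3 broad peaks reached 6 of 10 genes (62.4% of all genes) and H3K27me1 broad peaks reached 4 of 10 (56.2%). The body was clear and a flank was covered in 3 genes for H3K27me3, namely SESA1, SESA2 and SESA5 (36.4% of all genes). The same held in 3 genes for H3K27me1, namely SESA1, SESA2 and SESA3 (33.5%). SESA2 and SESA3 were counted through 1 shared H3K27me1 peak, and 1 H3K27me3 peak lay in the flanks of both SESA1 and SESA2. Both marks fell within the body and flanks of OLEO2, SESA1 and SESA2, or 3 of 10, against 51.6% of all genes. H3K27me3 alone was found at CRA1, CRU2 and SESA5, again 3 of 10, against 10.9% of all genes. For CRA1 this depended on the 2 kb limit, since an H3K27me1 broad peak ended 2188 bp away. H3K27me1 alone was found at SESA3, 1 of 10, against 4.61%. CRU3, OLEO1 and SESA4 had neither mark, 3 of 10 against 33.0%. The members were set beside these shares without a test, and counts this small differ from them by few genes.

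**Figure D1:**
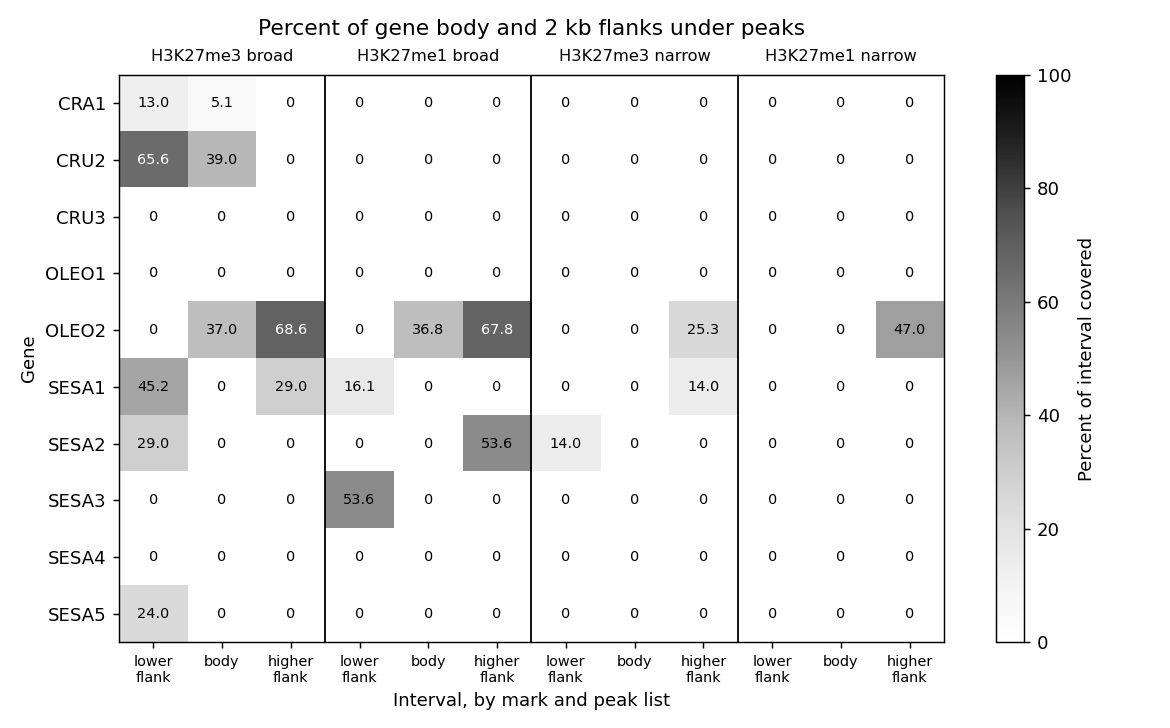
Percent of each gene's body and of the 2 kb on its lower-coordinate and higher-coordinate side that lay under peaks, for the 10 seed storage genes (rows) and by mark and peak list (columns). CRU2 and OLEO2 hold the darkest cells among the bodies, at 39.0% and 37.0% for H3K27me3, and the narrow lists leave all 10 bodies at 0%.

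The median share of body plus flanks under H3K27me3 broad peaks was 7.96% over the 10 storage genes and 8.57% over all genes. For H3K27me1 it was 0% over the storage genes and 5.96% over all genes. The storage genes ranged up to 35.1% for H3K27me3 and 34.7% for H3K27me1. For each mark, 3 of the 10 exceeded the upper quartile of all genes, which was 24.4% for H3K27me3 and 22.1% for H3K27me1. For H3K27me1 these were OLEO2 and, only just, SESA2 (22.6%) and SESA3 (22.5%). SESA2 and SESA3 owed this coverage to 1 shared peak, a weak call with a −log10 q of 1.27. The 10 genes are short, with lengths of 688 to 2396 bp (median 989 bp, against 2078 bp for all genes). None lay in the pericentromere windows, which held 10.97% of all genes, although OLEO2 was only 0.173 Mb from a window edge. Among genes outside the windows, H3K27me3 reached the body or flanks of 59.5% and H3K27me1 of 52.3%. Among genes within the length range of the members those shares were 60.5% and 54.4%.

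**Figure D2:**
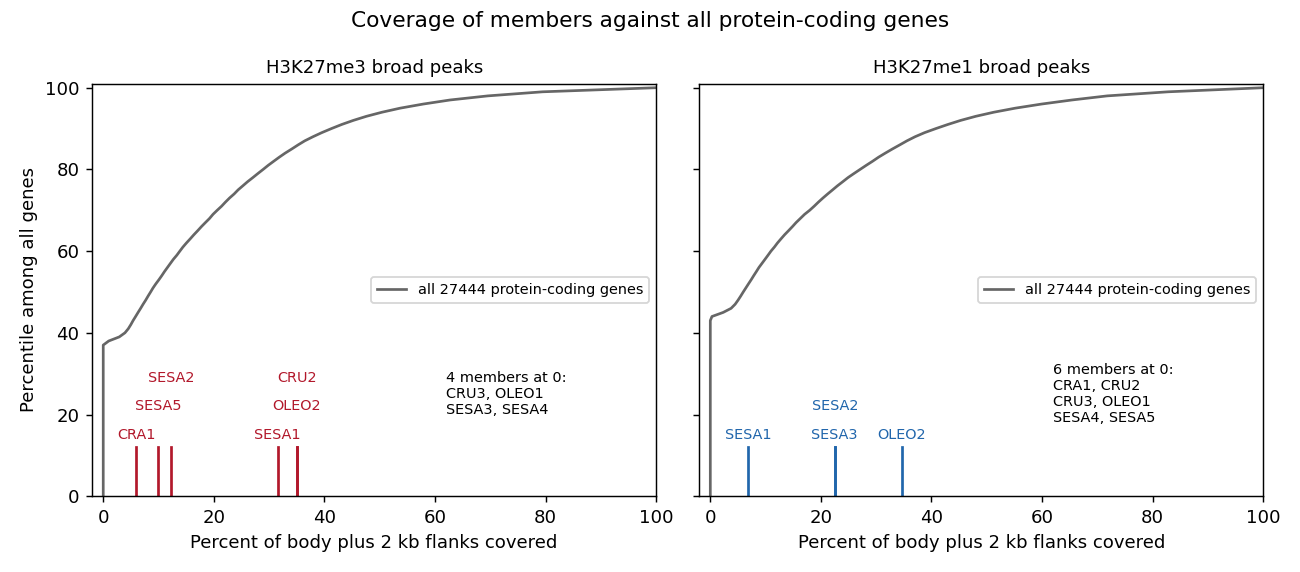
Cumulative curves of the percent of body plus 2 kb flanks under broad peaks over all 27444 protein-coding genes (x axis, percent covered; y axis, percentile), with coloured ticks for the storage genes above 0. CRU2 and OLEO2 stand at 35.1% and 35.0% for H3K27me3, and 6 of the 10 genes are at 0% for H3K27me1.

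The cruciferins, the subunits of the 12S globulin, differed from each other. CRU2 (AT1G03880, cruciferin B) had 39.0% of its body and 65.5% of the 2 kb on its lower-coordinate side under H3K27me3, and 0% of the other flank. H3K27me1 covered 0% of all 3 intervals. A single H3K27me3 broad peak accounted for this coverage. It ran on chromosome 1 from 984440 to 986684 (TAIR10), a width of 2245 bp, crossed the lower edge of the gene and covered 934 bp of it. The authors' fold enrichment of the peak was 1.59 and its −log10 q 1.86, and 23.5% of the H3K27me3 broad peaks had a lower −log10 q. The peak touched no other annotated gene, held no narrow peak and had no base of H3K27me1. The nearest H3K27me1 broad peak lay 6718 bp away, and the nearest narrow peaks of H3K27me3 and H3K27me1 lay 34821 and 34917 bp away. More body coverage by H3K27me3 than in CRU2 was found in 6.84% of all genes.

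CRA1 (AT5G44120, cruciferin A) had 5.05% of its body and 12.95% of its lower-coordinate flank under H3K27me3, and 0% of the 3 intervals under H3K27me1. Its body coverage came from a peak of 347 bp on chromosome 5 from 17755997 to 17756343, with 106 bp inside the gene. That peak was among the weakest of the list, at fold 1.39 and −log10 q 1.21, and 2.38% of H3K27me3 broad peaks had a lower −log10 q. A further group of peaks sat just at the 2 kb limit on the same side. It lay mostly between the neighbouring genes ABCI21 and ckl7, with 16.4% and 3.64% of their bodies under its H3K27me3 broad peak. Its H3K27me3 broad peak ended 1983 bp from CRA1 (fold 1.76, −log10 q 3.31) and counted as inside the flank by 18 bp. Its H3K27me1 broad peak ended 2188 bp away (fold 1.63, −log10 q 3.07) and counted as outside. Both marks had 2 narrow peaks within this group, the closest of them 2168 bp (H3K27me3) and 2199 bp (H3K27me1) from CRA1. The closest H3K27me3 narrow peak had fold 2.47 and −log10 q 9.95, and 69.7% of its list had a lower −log10 q. CRU3 (AT4G28520, cruciferin C) had no peak of any list within 5 kb. Its nearest broad peaks were 11934 bp (H3K27me3) and 14016 bp (H3K27me1) away.

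The oleosins also differed. OLEO2 (AT5G40420) was the member with most coverage by both marks together. H3K27me3 covered 37.0% of its body and 68.6% of its higher-coordinate flank, and H3K27me1 36.8% and 67.8%. The 2 broad peaks were nearly the same interval on chromosome 5. The H3K27me3 peak ran from 16174249 to 16176155 (fold 1.61, −log10 q 2.22) and the H3K27me1 peak from 16174252 to 16176139 (fold 1.60, −log10 q 2.98). The peaks crossed the higher edge of the gene and covered 535 bp (H3K27me3) and 532 bp (H3K27me1) of it. The narrow peaks inside them lay outside the gene. H3K27me3 had a single one, 853 bp from the gene, while H3K27me1 had 2, at 104 and 848 bp. The peaks at 853 and 848 bp overlapped over 99.2% of the H3K27me3 one, and the H3K27me1 peak at 104 bp had no H3K27me3 narrow counterpart. OLEO1 (AT4G25140), the other oleosin of the set, had no peak within 5 kb. Its nearest broad peaks were 6555 bp (H3K27me3, fold 1.95) and 7009 bp (H3K27me1, fold 1.99) away on the higher side.

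**Figure D3:**
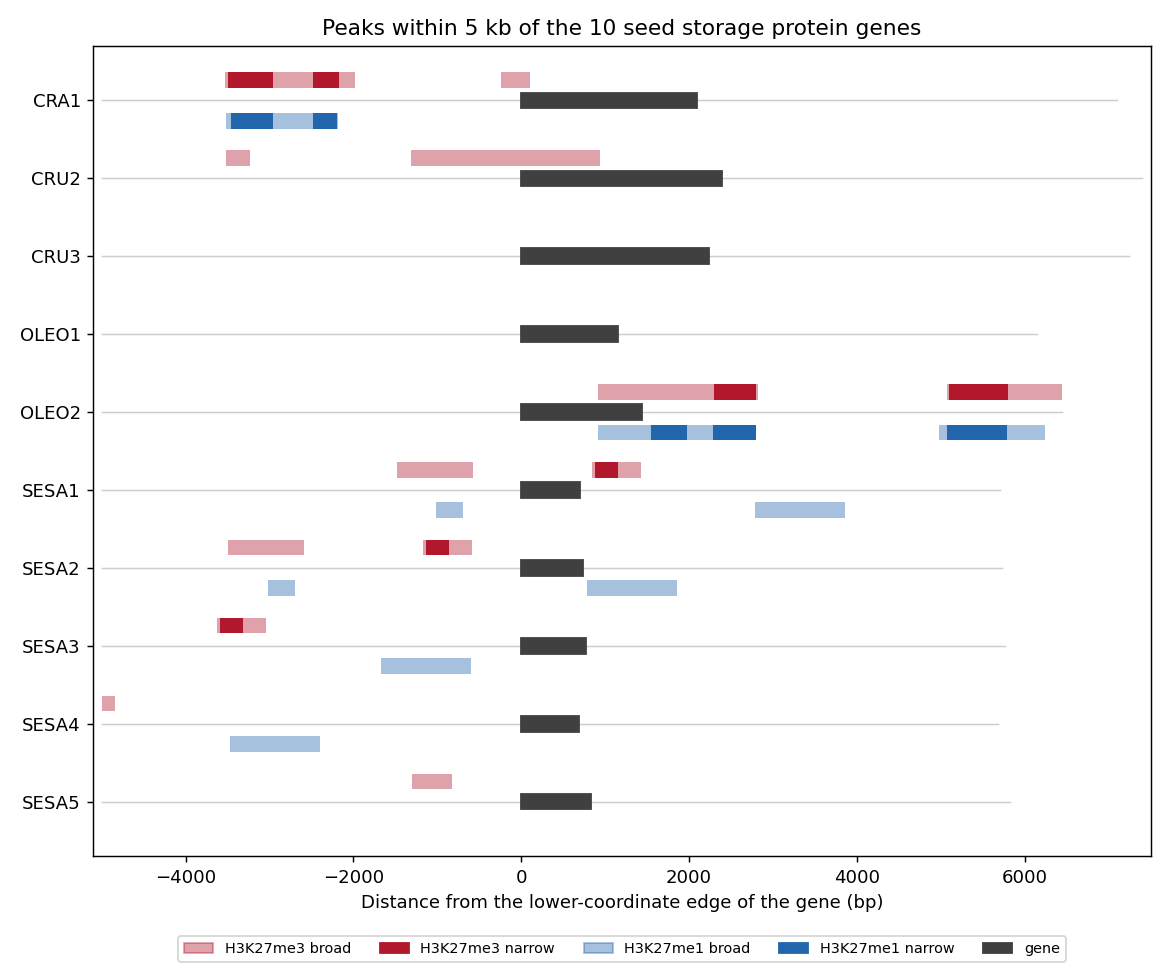
Peaks within 5 kb of each storage gene, aligned at the gene's lower-coordinate edge (x axis, bp), with H3K27me3 above and H3K27me1 below the dark gene bar; pale bars are broad and solid bars narrow peaks. Peaks cross a gene edge at CRA1, CRU2 and OLEO2, and the lines of CRU3 and OLEO1 are empty.

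The 2S albumin genes SESA1 to SESA4 (AT4G27140, AT4G27150, AT4G27160 and AT4G27170) stand in a tandem array of 6955 bp on chromosome 4, with no other annotated gene between them. The 4 gene bodies, of 688 to 768 bp, had 0% coverage by either mark in either list. Clear bodies were the common state. Broad peaks touched the body of 26.0% (H3K27me3) and 22.7% (H3K27me1) of all genes, and narrow peaks 8.25% and 8.5%. No like share over all genes was taken for spacers. The spacers between the SESA genes were not alike. H3K27me3 covered 44.2% of the 1309 bp between SESA1 and SESA2 and 0% of the other 2 spacers. H3K27me1 covered 62.3% of the 1720 bp between SESA2 and SESA3 and 0% of the other 2. The 1032 bp between SESA3 and SESA4 and the 2 kb beyond SESA4 held neither mark. Over the whole array H3K27me3 covered 8.32% (579 bp) and H3K27me1 15.4% (1072 bp), with no base in common. With 2 kb added on each side of the array the order of the marks turned round, at 13.5% for H3K27me3 and 12.7% for H3K27me1. When broad peaks were kept from −log10 q 2 upward, coverage of the array was 8.32% for H3K27me3 and 0% for H3K27me1.

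The H3K27me3 peak between SESA1 and SESA2 ran from 13608173 to 13608751 (fold 1.65, −log10 q 2.24). It began 142 bp after SESA1, and it held the sole narrow peak of the array, 279 bp wide (fold 1.98, −log10 q 4.42). The H3K27me1 peak between SESA2 and SESA3 ran from 13610120 to 13611191 and began 45 bp after SESA2. It was a weak call (fold 1.41, −log10 q 1.27), and 2.71% of the H3K27me1 broad peaks had a lower −log10 q. The nearest H3K27me1 narrow peak lay 21784 bp from SESA1. On the outer side of SESA1 both marks had a broad peak that also reached the neighbouring gene AT4G27130. The H3K27me3 one was 904 bp wide and ended 577 bp from SESA1 (fold 1.56, −log10 q 1.96). The H3K27me1 one, 321 bp wide, lay wholly inside it (fold 1.40, −log10 q 1.31). Of the body plus flanks of the array genes, H3K27me3 covered 31.5% at SESA1, 12.2% at SESA2, 0% at SESA3 and 0% at SESA4. H3K27me1 covered 6.83%, 22.6%, 22.5% and 0% in the same order. Neighbouring genes of the array share spacer sequence, so these values are not independent.

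**Figure D4:**
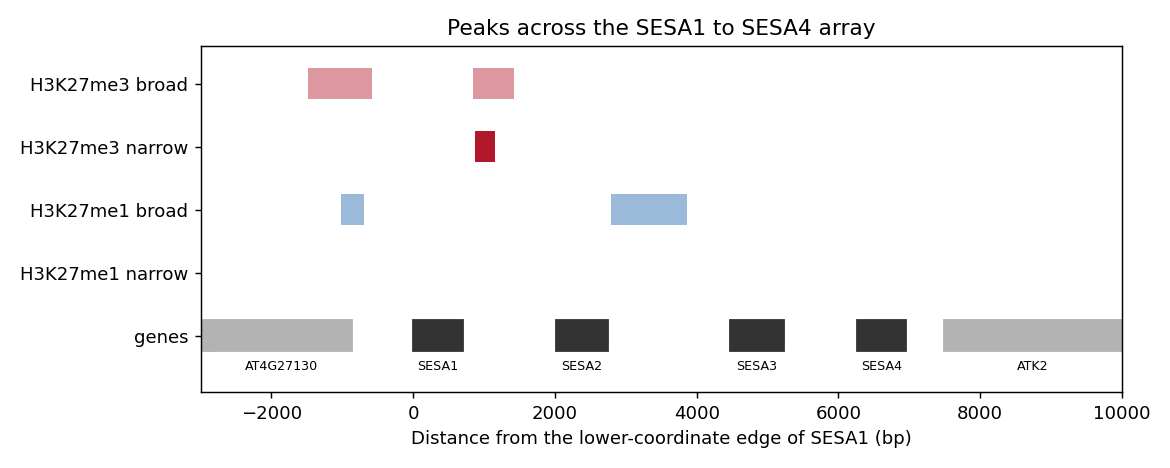
Peaks across the SESA1 to SESA4 array by mark and list (rows) against the distance from the lower-coordinate edge of SESA1 (x axis, bp); dark boxes are the SESA genes and grey boxes their neighbours. The H3K27me3 peak lies in the spacer after SESA1 and the H3K27me1 peak in the spacer after SESA2, and no peak touches a SESA gene.

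SESA5 (AT5G54740), the 2S albumin gene outside the array, had 24.0% of its lower-coordinate flank under H3K27me3, 0% of its body, and 0% of the 3 intervals under H3K27me1. The H3K27me3 peak was 480 bp wide, on chromosome 5 from 22237058 to 22237537, and ended 821 bp from the gene (fold 1.54, −log10 q 1.73). It touched the neighbouring gene G18F. The nearest H3K27me1 broad peak was 21467 bp away.

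The peaks near the storage genes were mostly below the middle of their lists in strength. Within 2 kb of the 10 genes there were 7 H3K27me3 broad peaks, of which 6 had a −log10 q below the list median of 2.67 and 5 a fold below the list median of 1.64. For H3K27me1 there were 3, of which 3 were below the median −log10 q of 2.99 and 2 below the median fold of 1.57. A −log10 q of 2 or more was found for 3 of the 7 H3K27me3 peaks (71.5% of the list) and 1 of the 3 H3K27me1 peaks (77.4%). A narrow peak of the same mark lay inside 3 of the 7 H3K27me3 peaks, beside 52.9% of that list, and inside 1 of the 3 H3K27me1 peaks, beside 57.4%. The 3 storage genes whose flanks or bodies held a narrow H3K27me3 peak were OLEO2, SESA1 and SESA2, the last 2 sharing 1 peak (34.3% of all genes). For H3K27me1, 1 storage gene, OLEO2, held narrow peaks (32.4%).

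Several peaks at the storage genes held a single mark. Of the 7 H3K27me3 broad peaks within 2 kb of the 10 genes, 4 had no base of H3K27me1, beside 18.2% of the 12927 peaks of that list. All 4 were below the list median −log10 q of 2.67. They had 1.21 at CRA1, 1.86 at CRU2, 1.73 at SESA5 and 2.24 between SESA1 and SESA2. Of the 3 H3K27me1 broad peaks, 1 had no base of H3K27me3, beside 13.5% of the 11898. The H3K27me3 peak at CRU2 was wide for a peak of 1 mark, since 44 of the 2359 H3K27me3 broad peaks without H3K27me1 were at least as wide. This peak was singled out after its values were seen, it was a weak call, and no test was run.

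The other genes of the storage and seed maturation programme were taken from 5 lists with 29 genes. They showed both covered and clear loci. Of 9 further reserve and oil body genes (other globulins and cupins, oleosins, a caleosin and a steroleosin), H3K27me3 reached the body or flanks of 2 and H3K27me1 of 1, beside 62.4% and 56.2% of all genes. The cupin gene AT2G18540 had 34.5% of body plus flanks under H3K27me3 and 36.4% under H3K27me1, nearly all of it in the flanks. The vicilin-like globulin PAP85 had 4.62% and 0%. Over the 5 seed oleosins of both lists, OLEO2 was the only gene reached by either mark. The LEA genes EM1 and EM6, which encode hydrophilic proteins of the drying embryo, had 0% under both. Of all genes, 33.0% had neither mark in body or flanks.

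Of the 4 vacuolar processing enzyme genes, whose products include the proteases that mature storage proteins, H3K27me3 reached 4 and H3K27me1 reached 2, beside 62.4% and 56.2% of all genes. ALPHA-VPE had 28.7% of body plus flanks under H3K27me3 and 15.9% under H3K27me1, GAMMA-VPE 15.3% and 10.6%, and BETA-VPE, the seed type, 14.8% and 0%. The 11 regulators of seed maturation had 8 genes reached by H3K27me3 and 8 by H3K27me1, beside 62.4% and 56.2% of all genes, with medians of 22.1% and 18.6%. Their bodies were touched in 7 of 11 cases by H3K27me3 and in 4 by H3K27me1, beside 26.0% and 22.7% of all genes, in 0 cases over at least 50%. BZIP67, a bZIP factor of the maturing seed, led them with 40.6% under H3K27me3 and 76.8% under H3K27me1. It was the only gene of the 6 lists, members included, that lay in a pericentromere window. BZIP10 had 38.6% and 10.1%, and LEC1 29.0% and 38.2%. The B3 activators, given here for their role and not by the naming rule, were ABI3 with 36.4% and 23.5%, LEC2 with 13.9% and 12.95%, and FUS3 with 0% under both. Among the 3 VAL genes, VAL2 had 34.5% under H3K27me3 and 0% under H3K27me1, VAL1 11.7% and 10.7%, and VAL3 0% under both. The difference between storage genes and regulators was not tested.

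**Figure D5:**
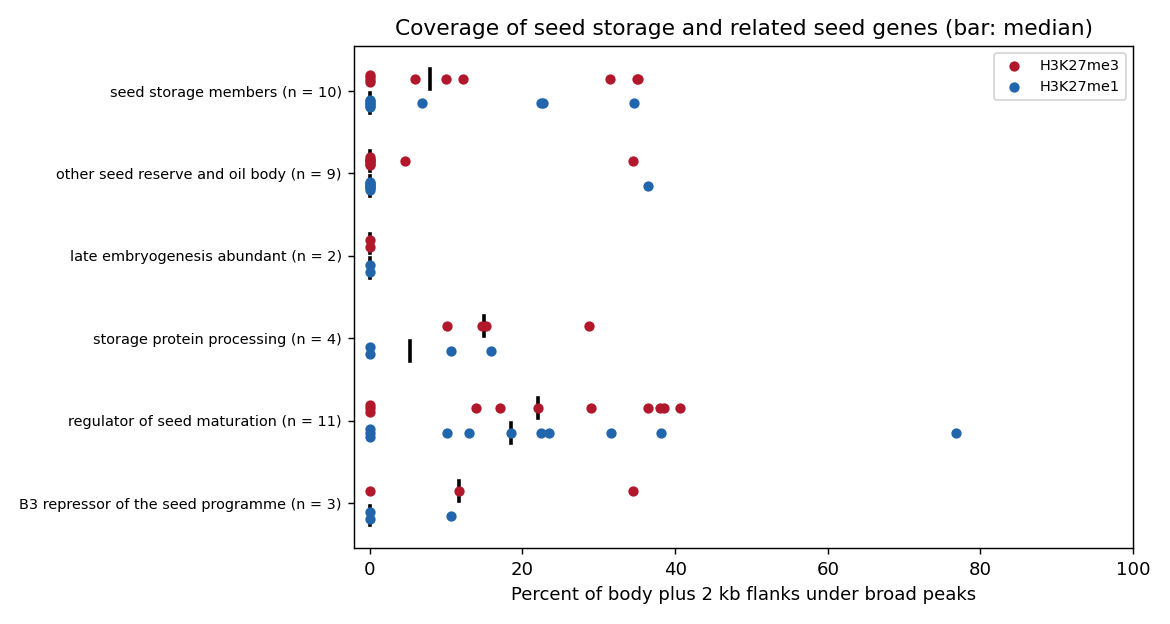
Percent of body plus 2 kb flanks under broad peaks (x axis) for each gene of the storage set and of 5 related seed gene lists (rows), with H3K27me3 above H3K27me1 and a black bar at each median. The storage genes have medians of 7.96% and 0%, and the regulators 22.1% and 18.6%.

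The gene most like each of the 3 best covered storage genes was sought over 12 percents (body and both flanks, by mark and list). The nearest gene to CRU2 was GGP1, at a distance of 13.6 percentage points, with 34.1% of its body and 52.9% of its lower-coordinate flank under H3K27me3. The nearest to OLEO2 was AT2G23090, at 7.39 percentage points. Its body lay 31.8% under H3K27me3 and 34.3% under H3K27me1. The nearest to SESA1 was AT4G39820, at 15.3 percentage points, with 43.3% and 17.8% of its lower-coordinate flank under H3K27me3 and H3K27me1. CRU3, OLEO1 and SESA4 had 0% in all 12, a pattern shared by 9043 of the 27444 genes.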

How the data were processed

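The submitters' processing notes list MACS2 2.1.0, Bowtie2 2.1.0, Trim Galore 0.4.1, deepTools 2.5.0.1, Picard, SAMtools 1.3 and bedtools without saying what each did, and TAIR10 as the build. Per the labels, each deposited list belongs to all 3 immunoprecipitations of its mark. How samples and inputs entered peak calling, and how reads mapping to several places were treated, are points not given in the sources used here. Each deposited peak carries a fold enrichment (a ratio over the caller's background) and a −log10 q, read from the column layout. The deposited caller score and the narrow peaks' other column, the summit offset, enter no result. The lowest −log10 q deposited was 1.02 in the broad and 2.00 in the narrow lists. Ranks and medians of these values were taken only inside their own list. The −log10 q cutoff of 2 was the same for the broad lists of both marks, so what passes it is not strictly comparable between marks.

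Coverage was computed with Python 3.11.15, numpy 2.4.6 and pandas 2.3.3, and figures with matplotlib 3.10.9. It is the percent of bases of the gene body, of the 2 kb on each side, or of both under peaks, with 1 bp as the least overlap. Coverage was tested on simulated intervals. Gene intervals and names came from a table of 38312 genes on TAIR10.1, in which all 39 listed loci were found. Printed coordinates are the peaks' own in TAIR10, 1-based, and gene positions are left out. Distances are differences between facing edges. Sliding narrow peaks in steps of 500 bp up to 3000 bp gave the lowest share in genes without any shift (0 bp) for 10 of 10 pairs of mark and chromosome. The table has no strand or exons, so sides are called lower and higher coordinate. Promoter motifs and protein identity were planned, but promoter and protein sequences were not used here. Pericentromere windows are those of whole Mb, 12 to 18 on chromosome 1, 1 to 7 on 2, 11 to 17 on 3, 2 to 6 on 4 and 9 to 16 on 5. No test was run, because the lists hold no values per sample. The members and lists were chosen with earlier results of these data known. Besides the members, the naming rule took up to 3 genes per list with most coverage by either mark, genes touched by a peak within 2 kb of a member, and the nearest gene in pattern to 3 members.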

Additional observations from a re-analysis of the deposited data

How the results depend on the processing

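Of 38 alternative values, 18 stayed close to the reported one (counts within 1.5 times, percents within the 95% binomial interval over bases) and 20 moved. For percents that interval is only a yardstick and no measure of error, since neighbouring bases are not independent. With the narrow lists, bodies touched came to 0 (H3K27me3) and 0 (H3K27me1), genes reached with flanks to 3 and 1, the H3K27me3 median to 0%, and array coverage to 4.01% and 0%. With broad peaks of −log10 q of at least 2, H3K27me3 touched 1 body and its median was 0%, while H3K27me1 reached 1 gene and 0% of the array. With the 50% of broad peaks of highest fold, H3K27me3 touched 0 bodies and reached 3 genes with a median of 0%, and H3K27me1 reached 1 gene and 0% of the array. With 5 kb flanks the medians were 9.60% (H3K27me3) and 9.99% (H3K27me1). The H3K27me1 median of the storage genes, 0% with 2 kb flanks, thus depended on flank size. No median over all genes was taken at 5 kb, so its contrast with all genes was not followed there. With 2 kb added to each side of the array, coverage was 13.5% and 12.7%, so the order of the marks there turned round. The stricter lists hold fewer peaks by construction, so counts fall for genes of any kind. No share over all genes was taken for the filtered broad lists. Their lower counts therefore cannot be read as particular to the storage genes. The backgrounds of genes outside the pericentromere windows and of like length were added after the data were seen. No paired analysis was possible because the peak lists hold 1 set of peaks per mark and no value per sample, and no sample could be left out.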
